A study of Rattus norvegicus with 119 samples.

Results

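Expression of 9 myelin genes of mature oligodendrocytes was followed in rat hippocampus after developmental exposure to lead. The genes were Mbp, Mobp, Mal, Cldn11, Mog, Mag, Cnp, Ugt8 and Fa2h, and they were measured by 10 probe sets, chosen as the probe sets whose only gene symbol was one of these names. All 9 genes were found, of 14506 gene symbols measured in all. The 10 were among 29214 probe sets, of which 15310 carried exactly 1 symbol. Mbp had 2 probe sets and the other genes had 1 each.

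RNA of each rat was hybridised to an array of its own (Affymetrix Rat Gene 1.0 ST, read in 1 colour), and values are log2 intensities. Each of 3 strains (Long Evans, Sprague Dawley and Fischer) had males and females in 5 treatments, which made 30 groups. The treatments were perinatal 250 ppm, perinatal 750 ppm, postnatal 250 ppm and postnatal 750 ppm lead acetate in chow, and control chow without lead. Perinatal pups had dams that ate the lead chow from 10 days ahead of mating up to weaning. Postnatal animals had it between birth and postnatal day 45, and every hippocampus was taken on postnatal day 55. Groups held 4 animals, or 3 in Sprague Dawley male controls. Litters are not given in the labels used here, so p-values measure the spread between these animals, and littermates may be among them.

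Oligodendrocytes are the glial cells that wrap axons of the central nervous system in myelin, a stack of lipid-rich membrane that speeds conduction. In the rat hippocampus most myelin is laid down after birth, so both exposure periods overlap its formation. A mature oligodendrocyte devotes much of its transcription to a few structural proteins of the sheath and to the enzymes that make its galactolipids. In whole tissue, fewer cells of a type and less RNA per cell cannot be told apart.

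The members cover the parts of the sheath. Mbp encodes myelin basic protein, which holds the cytoplasmic faces of compact myelin together, Mobp encodes another basic protein of compact myelin, and Mal encodes a proteolipid of myelin membrane. Cldn11 encodes the claudin of the tight junctions between myelin layers. Mog lies on the outer surface of the sheath, Mag on the inner membrane that faces the axon, and Cnp in the non-compact, cytoplasm-filled channels. Ugt8 makes galactosylceramide, and Fa2h hydroxylates the fatty acids of that lipid.

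Promoter sequence is shown for Mag, Mal, Cnp, Cldn11 and Mobp, whose windows held letters bound by factors of the oligodendrocyte lineage. RefSeq windows on the GRCr8 build, from 250 bases before to 50 after a transcription start, were matched for 8 of the 9 genes. A consensus of MYRF, the factor that drives myelin genes in maturing oligodendrocytes, was searched as CTGGNAC on both strands. It was found in 5 of these 8 genes (Mbp, Mag, Mal, Cnp and Cldn11), and 18.2% of 33469 RefSeq promoter windows of the same length held it. A SOX core, ACAANG on either strand, was found in 4 of the 8 genes (4 of the 9 windows) and in 42.1% of all windows. The letters G and C made up 58.3% to 79.3% of the member windows other than Mobp (44.3%), against a median of 51.7% over all windows. Matches of the MYRF and SOX letters did not overlap in the members. Ugt8 and Fa2h, which moved closely with Cnp across animals (below), held neither. The matches therefore do not follow the co-variation of the members, and the windows of Ugt8, Fa2h and Mbp are not shown. A match is a description of the letters and not of binding. The 4 windows below show the MYRF letters in capitals (CTGGNAC or its reverse complement), and the Mobp window shows its 8 matches of the SOX letters in capitals, all read on the opposite strand.
Mag promoter, chr1:95290995-95291294, minus strand: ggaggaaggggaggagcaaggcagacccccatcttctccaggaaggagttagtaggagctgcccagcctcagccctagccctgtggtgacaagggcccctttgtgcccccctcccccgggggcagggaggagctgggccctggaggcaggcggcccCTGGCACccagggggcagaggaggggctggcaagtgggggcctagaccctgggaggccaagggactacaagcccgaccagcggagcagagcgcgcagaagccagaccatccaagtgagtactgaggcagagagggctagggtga
Mal promoter, chr3:135341374-135341673, minus strand: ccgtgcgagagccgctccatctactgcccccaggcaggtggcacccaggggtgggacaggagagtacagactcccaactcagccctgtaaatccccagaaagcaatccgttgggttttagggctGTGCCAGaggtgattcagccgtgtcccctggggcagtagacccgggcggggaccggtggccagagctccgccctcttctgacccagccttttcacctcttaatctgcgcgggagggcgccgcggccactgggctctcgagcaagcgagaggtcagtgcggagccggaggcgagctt
Cnp promoter, chr10:86011254-86011553, plus strand: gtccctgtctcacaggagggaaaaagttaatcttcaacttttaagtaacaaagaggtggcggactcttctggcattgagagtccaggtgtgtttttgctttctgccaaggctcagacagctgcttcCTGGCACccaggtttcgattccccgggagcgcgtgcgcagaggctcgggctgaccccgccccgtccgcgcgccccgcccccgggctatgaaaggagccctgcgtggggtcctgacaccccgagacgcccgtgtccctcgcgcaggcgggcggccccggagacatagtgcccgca
Cldn11 promoter, chr2:114149490-114149789, minus strand: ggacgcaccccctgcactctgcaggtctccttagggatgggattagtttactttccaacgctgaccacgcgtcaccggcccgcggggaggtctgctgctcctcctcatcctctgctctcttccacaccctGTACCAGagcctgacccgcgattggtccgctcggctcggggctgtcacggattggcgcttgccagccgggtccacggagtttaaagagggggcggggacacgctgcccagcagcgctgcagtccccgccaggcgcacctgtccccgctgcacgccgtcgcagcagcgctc
Mobp promoter, chr8:128746982-128747281, plus strand: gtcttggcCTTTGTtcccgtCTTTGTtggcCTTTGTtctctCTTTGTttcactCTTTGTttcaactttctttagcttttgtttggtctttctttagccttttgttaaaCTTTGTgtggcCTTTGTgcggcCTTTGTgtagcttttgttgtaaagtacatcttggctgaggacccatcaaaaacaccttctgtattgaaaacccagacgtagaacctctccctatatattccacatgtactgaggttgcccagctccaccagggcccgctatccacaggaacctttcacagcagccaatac

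Array medians ranged from 7.36 to 7.57, and no pair of arrays was identical. Levels of the X-linked genes Eif2s3, Ddx3x and Pbdc1 went against the sex label in 8 arrays. Of these, 3 were Long Evans controls (male 4, female 1 and female 3) and 5 came from Sprague Dawley rats (female control 2, and at 750 ppm male perinatal 4, male postnatal 2, female postnatal 2 and 4). Mean lead effects, strain contrasts, group counts and the pair correlations of the members are given below without them too, and list correlations and the choroid plexus covariate are given only with all arrays. The numbers in the animals' labels also parted the arrays. Each group was split into its own lower and upper label numbers, so both sets hold animals of every group. Upper against lower label numbers differed in 0.0993% of all probe sets for Long Evans, in 18.9% for Sprague Dawley rats and in 60.9% for Fischer. In Fischer the 2 Mbp probe sets moved in opposite directions, with 12.56 in upper and 12.31 in lower numbers for probe set 10802980, and 9.02 in upper and 9.17 in lower numbers for probe set 10802972. Fa2h averaged 10.14 in upper and 10.36 in lower Fischer numbers. Of the 10 member probe sets 7 passed this test in Fischer, 3 in Sprague Dawley (Mbp probe set 10802980, Mobp and Cnp) and 0 in Long Evans, where adjusted p ran from 0.42 upward (limma).

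In Long Evans rats 5 of the 10 probe sets were called higher after lead, and 0 without the 3 controls whose arrays went against their sex label. The mean of the 8 exposed-minus-control differences was positive for all 10 probe sets, with a median of 0.21 log2, against 0.001 over all probe sets. Those that passed an adjusted p of 0.05 (limma, Benjamini-Hochberg over all probe sets) were Cldn11, Mog, Mag, Cnp and Fa2h. In the same comparison 0.212% of all probe sets were called, and 0.175% were called higher. Both Mbp probe sets, Mobp, Mal and Ugt8 did not pass.

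Cldn11 had the smallest p. Its lowest, median and highest values were 12.11, 12.33 and 12.53 in 32 exposed Long Evans rats, against 11.99, 12.10 and 12.23 in 8 controls. Of the exposed rats, 25 lay above the highest control, and the ranges overlapped only in the lower part of the exposed animals. The mean difference was 0.21 ± 0.04 (SE; adjusted p = 0.0058, limma). It was positive in 8 of 8 exposed groups, from 0.10 to 0.33.

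Mog gave 11.59, 11.86 and 12.21 (lowest, median, highest) in exposed and 11.41, 11.60 and 11.88 in control Long Evans rats. The ranges overlapped widely, since 1 female control stood at 11.88, and 14 exposed rats lay above it. The mean difference of Mog was 0.26 ± 0.06 (SE; adjusted p = 0.045, limma). Mag, at the axonal face of the sheath, ran from 11.25 through a median of 11.50 to 11.78 in exposed rats, against 11.23, 11.30 and 11.40 in controls. Of the exposed rats 26 of 32 lay above every control, and the difference was 0.21 ± 0.05 (SE; adjusted p = 0.045, limma). Cnp, in the cytoplasmic channels, gave 11.90, 12.05 and 12.32 in exposed rats and 11.79, 11.92 and 11.98 in controls. For Cnp 27 exposed rats lay above every control, with a difference of 0.17 ± 0.04 (SE; adjusted p = 0.048, limma).

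Fa2h and Ugt8 are the galactolipid enzymes among the members. Fa2h gave 10.22, 10.63 and 10.90 in exposed and 10.28, 10.36 and 10.42 in control Long Evans rats. The exposed range enclosed that of the controls, yet 28 of 32 exposed rats lay above the highest control. The Fa2h difference was 0.25 ± 0.06 (SE; adjusted p = 0.047, limma). Ugt8 gave 10.31, 10.74 and 11.08 in exposed rats against 10.42, 10.47 and 10.57 in controls, a difference of 0.26 ± 0.06 that did not pass (SE; adjusted p = 0.065, limma).

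Among the genes of compact myelin, Mal gave 11.73, 12.02 and 12.41 in exposed and 11.69, 11.81 and 12.04 in control Long Evans rats. Its difference of 0.24 ± 0.06 did not pass (SE; adjusted p = 0.084, limma). Mobp gave 11.61, 11.86 and 12.14 in exposed and 11.55, 11.69 and 11.78 in control rats, a difference of 0.18 ± 0.05 that did not pass (SE; adjusted p = 0.11, limma). Mal and Mobp, like Cldn11, Mog, Mag, Cnp, Ugt8 and Fa2h, had a group mean above control in 8 of 8 exposed groups. Mbp probe set 10802980 differed by 0.10 ± 0.05 and probe set 10802972 by 0.03 ± 0.03 (SE; adjusted p = 0.59 and 0.95, limma), and they lay above control in 7 and 5 of 8 groups.

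**Figure D1:**
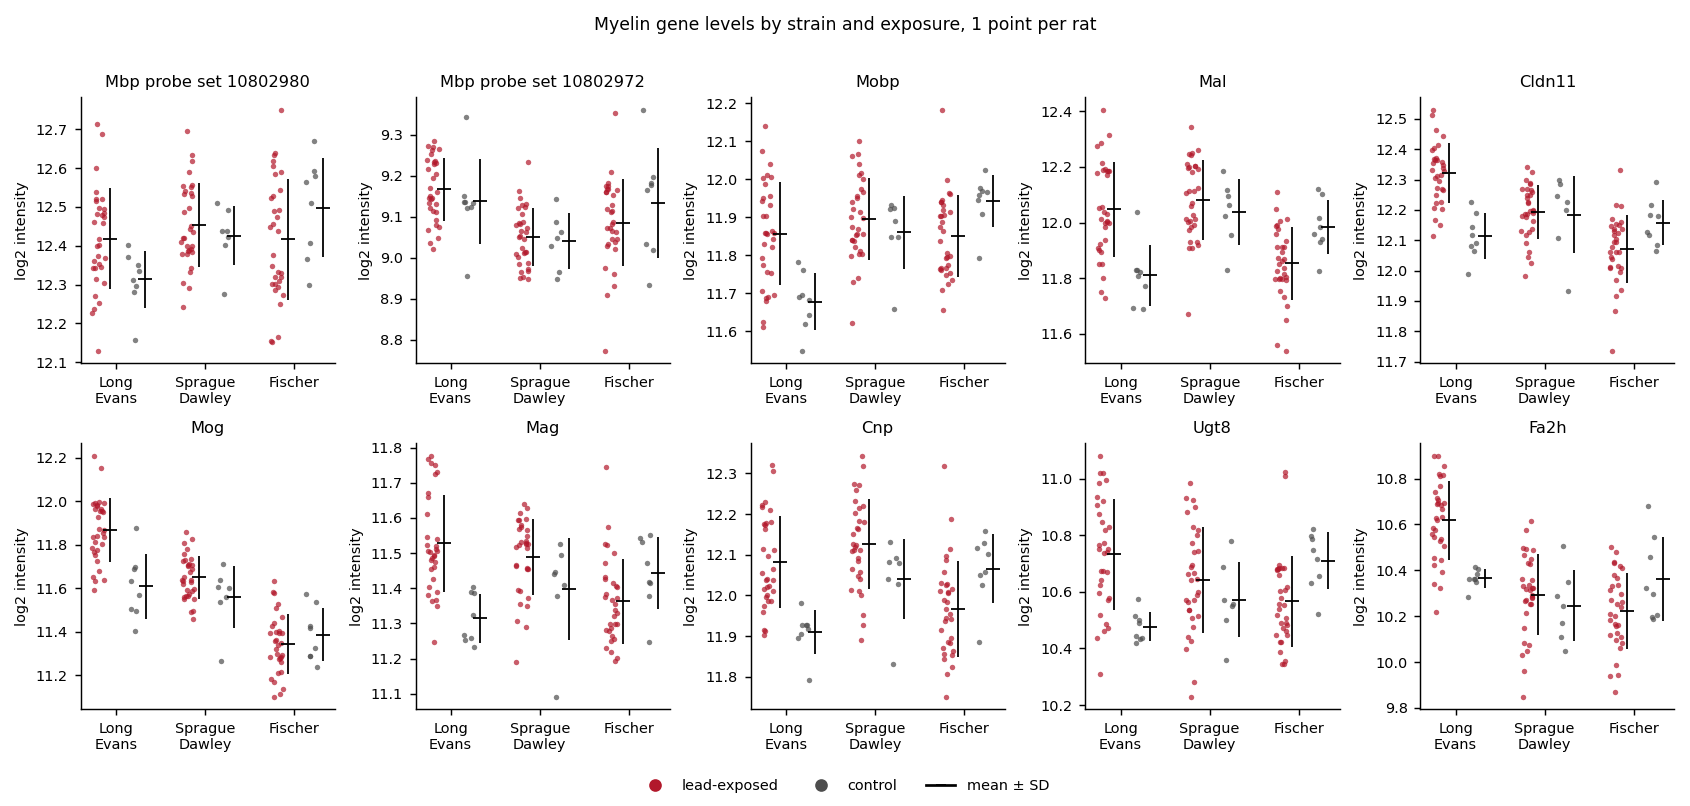
Log2 intensity of the 10 probe sets (1 panel each) in every rat, by strain, with lead-exposed rats (32 per strain, red) left of controls (8, 7 and 8 in Long Evans, Sprague Dawley and Fischer, grey); black marks show the mean ± SD. In Long Evans, 25 to 28 of 32 exposed rats lie above every control for Cldn11, Mag, Cnp, Ugt8 and Fa2h, whereas exposed Fischer rats lie lower on average for all 10 probe sets.

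The 5 called differences in Long Evans kept their sign and stayed between 0.157 (Cnp) and 0.308 (Mog) under the alternatives run, leaving out single animals included, but most calls sat close to the threshold. Without the 3 Long Evans controls whose arrays went against their sex label, 5 controls were left. The 5 called genes then differed by 0.19 (Cnp) to 0.31 (Mog), and 0 of 10 probe sets passed (limma adjusted p from 0.086 for Mog to 0.26 for Fa2h; Cldn11 0.21, adjusted p = 0.10). By unadjusted p, 8 of the 10 stayed under 0.05 in that fit, where 15 of 29214 probe sets were called. Cldn11 was called in 40 of 40 fits that left out 1 animal, Mog and Mag in 19 each, Fa2h in 11 and Cnp in 9. Leaving out any of the 8 controls left 1 or 2 members called.

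The spread of Long Evans controls was narrow beside that of exposed rats. The mean of the 10 probe sets lay between 11.23 and 11.33 in the 8 controls and between 11.25 and 11.68 in the 32 exposed rats. Its pooled SD within groups was 0.108 in exposed and 0.036 in control rats. Within the upper label numbers of Long Evans, the mean difference of the 5 called genes was 0.17 (Cnp) to 0.28 (Mog), and within the lower numbers 0.17 (Cnp) to 0.24 (Fa2h and Mog). The label numbers of the controls adjoined those of 1 exposed group only, female perinatal 750 ppm, at a gap of 1. The other 7 exposed groups stood 844 to 1467 numbers away, so in them exposure and label run cannot be told apart. The upper and lower sets were drawn within each group, so the differences within a set do not bear on this distance. In the adjoining group all 10 differences were positive, from 0.08 (Mbp probe set 10802980) to 0.30 (Mal), and 0 passed (limma; 5 at unadjusted p under 0.05, and 0.133% of all probe sets called).

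Group by group, 76 of 80 differences of a Long Evans member were positive and 1 passed. In males at perinatal 250 ppm Cldn11 stood at 12.35, 12.53, 12.46 and 12.31, against 12.12, 11.99, 12.14 and 12.08 in male controls. Those groups did not overlap, and the difference of 0.33 ± 0.07 was the single call among 80 differences of a member in 1 group (SE; adjusted p = 0.047, limma; 0.0411% of all probe sets called). It did not pass with a block for the label-number set (adjusted p = 0.061), nor without the arrays against their sex label. The other 79 did not pass, and 47 of the 80 had an unadjusted p under 0.05 (limma). The share of all probe sets called in the other male groups was 0.0548% at perinatal 750 ppm, 0.024% at postnatal 250 ppm and 0.0479% at postnatal 750 ppm. In females it was 0.0103% at perinatal 250 ppm, 0.133% at perinatal 750 ppm, 0.0171% at postnatal 250 ppm and 0.0103% at postnatal 750 ppm.

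In that male perinatal 250 ppm group, 9 of 10 member probe sets had every exposed rat above every control, where 1.71% of all probe sets had this. The exception was Mbp probe set 10802972. In males at postnatal 750 ppm it held for 8 members (2.33% of all probe sets), all but those of Mbp. It held for 4 in males at perinatal 750 ppm (2.07%) and for 4 in males at postnatal 250 ppm (1.54%), with Mog and Cldn11 in both. In females it held for 7 members at perinatal 250 ppm (2.09%), for 3 at postnatal 250 ppm (1.29%; Mag, Cnp and Fa2h), and for 0 at perinatal 750 ppm (2.44%) and postnatal 750 ppm (1.4%). The 4 groups of a sex share their controls, so these counts are not independent. Without the arrays against their sex label, 3 male and 2 female controls were left. In males they were 9 at perinatal 250 ppm (3.01% of all probe sets), 5 at perinatal 750 ppm (3.61%), 4 at postnatal 250 ppm (3.19%) and 8 at postnatal 750 ppm (4.33%). In females they were 8 at perinatal 250 ppm (8.12%), 0 at perinatal 750 ppm (7.36%), 3 at postnatal 250 ppm (5.05%) and 1 at postnatal 750 ppm (5.97%; Cnp).

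**Figure D2:**
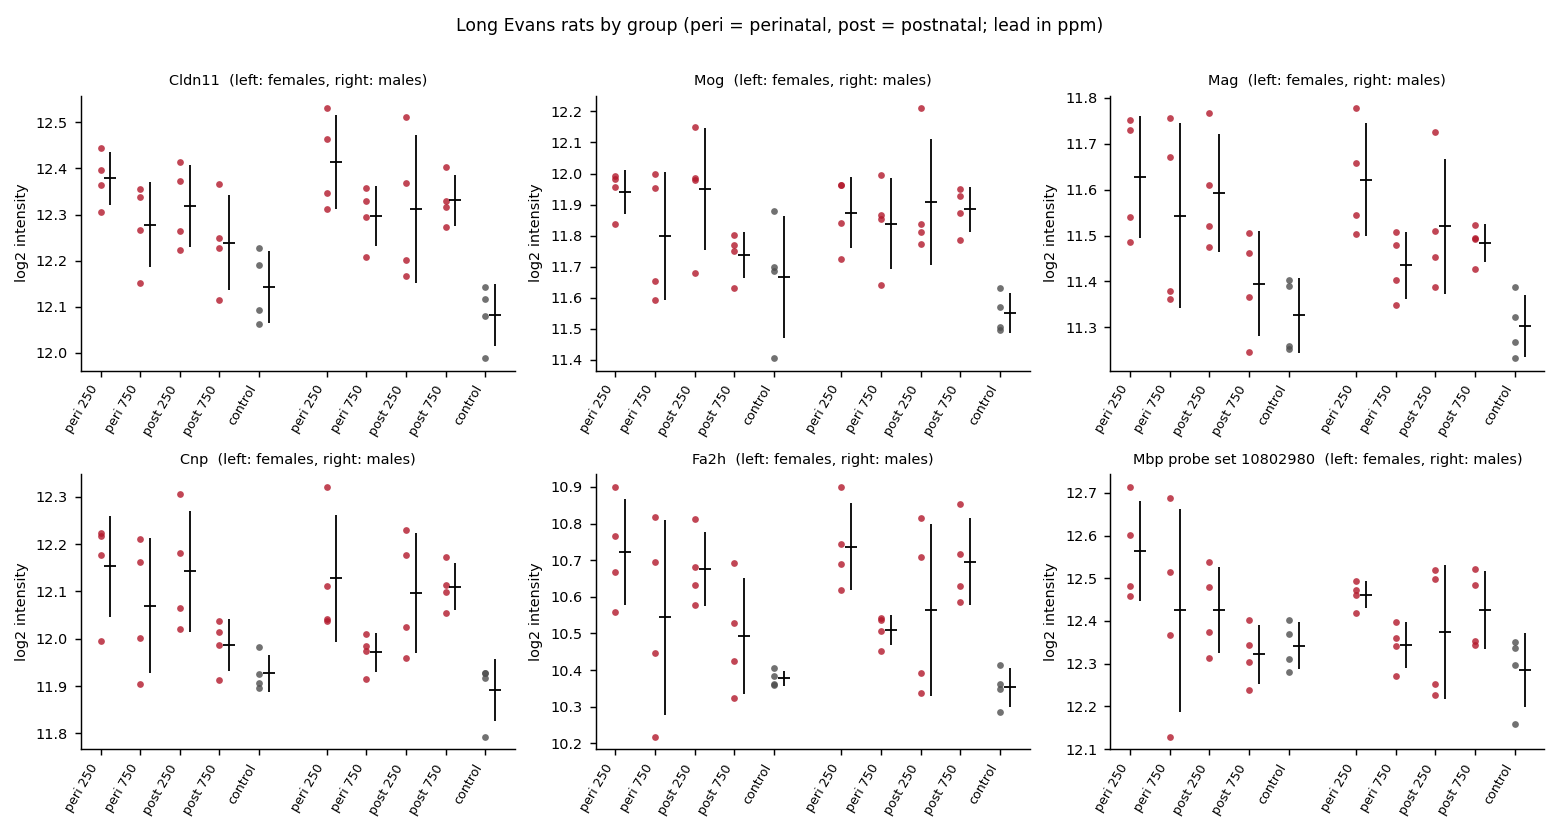
Log2 intensity of Cldn11, Mog, Mag, Cnp, Fa2h and Mbp probe set 10802980 in Long Evans rats, 1 point per rat, with the mean ± SD (black); in each panel females are on the left and males on the right, exposed groups in red, controls in grey. Male perinatal 250 ppm rats lie wholly above male controls in all 6 panels, and female postnatal 750 ppm rats overlap female controls in all 6.

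Mag in Long Evans shows the spread within groups. In females at perinatal 750 ppm it stood at 11.76, 11.67, 11.36 and 11.38, against 11.39, 11.40, 11.25 and 11.26 in female controls. In these animals the values followed the label-number sets, whereas over all Long Evans rats the sets did not differ in Mag (-0.03, adjusted p = 0.83, limma). In the upper numbers exposed rats stood at 11.36 and 11.38, against 11.25 and 11.26 in controls, and in the lower numbers at 11.76 and 11.67, against 11.39 and 11.40 in controls. Within each set both exposed rats lay above both controls. The arrays of female control 1 (lower numbers) and female control 3 (upper numbers) went against their sex label. Fa2h in the same exposed group stood at 10.82, 10.69, 10.22 and 10.45, against 10.40, 10.36, 10.36 and 10.38 in female controls, so 1 exposed rat, of the upper numbers, was the lowest of all 8.

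No member passed the tests of dose, period or sex in Long Evans. The difference of 750 minus 250 ppm was negative for all 10 probe sets, from -0.16 (Ugt8) to -0.01 (Mbp probe set 10802972), and 0 passed (limma; 5 at unadjusted p under 0.05, lowest adjusted p = 0.40, 0.0548% of all probe sets called). Perinatal minus postnatal ran from -0.01 (Mog) to 0.09 (Mobp), with 0 called (2 unadjusted; 0.065% of all called). The mean of the 4 perinatal groups passed for Cldn11 (0.23 ± 0.04, adjusted p = 0.0086) and Mag (0.24 ± 0.05, adjusted p = 0.033), with 0.212% of all probe sets called (SE, limma). Cldn11 was called in 40 and Mag in 32 of 40 fits that left out 1 animal. Without the 3 controls against their sex label, Cldn11 (0.23, adjusted p = 0.10) and Mag (0.25, adjusted p = 0.13) did not pass, and 0 members were called (limma; 9 unadjusted). In the mean of the 4 postnatal groups 0 members passed (8 unadjusted; lowest adjusted p = 0.051 for Cldn11, limma; 0.113% of all called). These means share their controls, and the test of perinatal against postnatal is the one given first. Female minus male ran from -0.09 to 0.12 in controls and from -0.14 to 0.10 for the mean lead effect, with 0 called and 0 at unadjusted p under 0.05 in each (limma; 0.0% of all called in each).

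In Fischer rats all 10 mean lead effects were negative, and 0 passed. They ran from -0.14 (Ugt8) to -0.04 (Mog), with a median of -0.09 and an adjusted p of 1 for each (limma). At an unadjusted p under 0.05 there were 4 (Mal, Mobp, Cldn11 and Ugt8), and 0.0% of all probe sets were called. Ugt8 gave 10.35, 10.55 and 11.02 (lowest, median, highest) in 32 exposed Fischer rats, against 10.52, 10.73 and 10.82 in 8 controls. The ranges overlapped, with 15 exposed rats below every control and 2 above. Cldn11 gave 11.73, 12.09 and 12.33 in exposed and 12.07, 12.15 and 12.29 in control Fischer rats, where again 15 exposed rats lay below every control. Mal gave 11.54, 11.86 and 12.11 in exposed and 11.82, 11.97 and 12.12 in control rats.

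In single Fischer groups 0 of 80 differences passed (limma; 7 unadjusted). Of all probe sets 0.0137% were called in males at postnatal 750 ppm, 0.00342% in females at perinatal 250 ppm and 0.0% in the other 6 groups. Members with every exposed rat below every control were found in 2 groups. In females at perinatal 250 ppm they were Mobp and Ugt8 (0.969% of all probe sets were wholly below), and in females at postnatal 250 ppm Mobp, Ugt8 and Cnp (1.37%). Ugt8 stood at 10.56, 10.46, 10.47 and 10.49 in Fischer females at postnatal 250 ppm, against 10.80, 10.63, 10.75 and 10.71 in female controls. Dose, period and sex gave 0 member calls in Fischer (limma), where the lowest adjusted p was 0.83, for Cldn11 in perinatal minus postnatal (0.11 ± 0.04, SE). Of all probe sets 0.0719% were called for dose, 0.00342% for period, and 0.0% for sex in controls or of the mean effect. At unadjusted p under 0.05 there were 2 members for dose, 1 for period and 0 for sex. The mean perinatal effect ran from -0.12 (Fa2h) to -0.03 (Mog) with 0 called (limma; 0 unadjusted). The mean postnatal effect ran from -0.18 (Ugt8) to -0.05 (Mbp probe set 10802972) with 0 called (limma; 6 unadjusted). Of all probe sets 0.0% were called in each of these means, which share their controls.

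In Sprague Dawley rats the 10 mean lead effects were positive and small, and 0 passed (limma, adjusted p = 0.9995 each; 3 unadjusted; 0.0171% of all probe sets called). They ran from 0.01 (Mbp probe set 10802972) to 0.10 (Mag), with a median of 0.04. Mag gave 11.19, 11.52 and 11.64 in 32 exposed rats, against 11.09, 11.44 and 11.53 in 7 controls, and 16 exposed rats lay above every control. In males at perinatal 250 ppm Mag stood at 11.63, 11.52, 11.53 and 11.57, against 11.45, 11.41 and 11.09 in the 3 male controls. Mag was wholly above control in these males (2.28% of all probe sets), in males at perinatal 750 ppm (2.07%) and, with Ugt8, in females at perinatal 250 ppm (1.57%). These positions held without the arrays against their sex label, where the shares of all probe sets were 2.28%, 4.03% and 4.09% in that order. Cnp was added there in females at perinatal 750 ppm (3.44%). Of 80 single differences 0 passed (limma; 9 unadjusted). Of all probe sets 0.0274% were called in males at perinatal 250 ppm, 0.0103% at perinatal 750 ppm and 0.0137% in each male postnatal group, and 0.0% in each female group. Perinatal minus postnatal was positive for all 10, up to 0.16 for Fa2h and Ugt8, with 0 called (limma; 5 unadjusted, lowest adjusted p = 0.70; 0.0411% of all called). The mean perinatal effect ran from 0.02 (Mbp probe set 10802972) to 0.15 (Mag) with 0 called (limma; 4 unadjusted; 0.00685% of all called), and the mean postnatal effect from -0.03 (Fa2h) to 0.07 (Mog) with 0 called (limma; 0 unadjusted; 0.0137% of all called). Dose and sex gave 0 member calls and 0 at unadjusted p under 0.05 (limma; 0.00342% of all called in each).

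**Figure D3:**
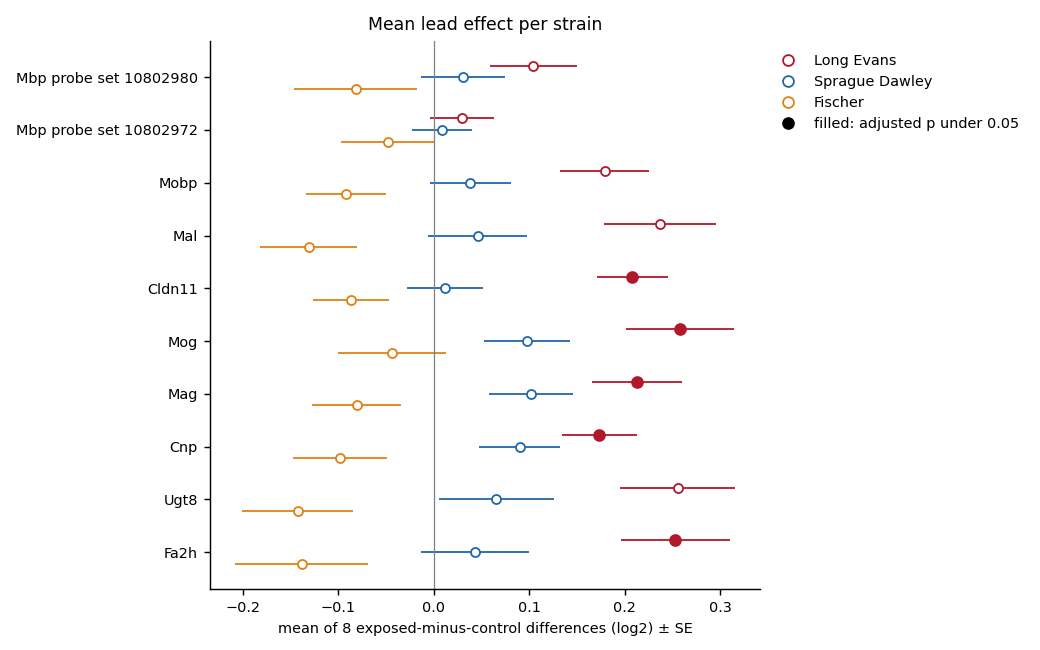
Mean of the 8 exposed-minus-control differences (log2, ± SE from limma) of each probe set in Long Evans (red), Sprague Dawley (blue) and Fischer (orange); filled points have an adjusted p under 0.05. Long Evans points lie to the right of 0 (0.03 to 0.26), Sprague Dawley points between 0.01 and 0.10, and Fischer points to the left (-0.14 to -0.04).

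Long Evans and Fischer rats differed in the lead effect of 7 of the 10 probe sets. Long Evans minus Fischer in the mean lead effect was positive for 10 of 10 (limma on the arrays of all strains), where 0.13% of all probe sets were called and 0.116% higher. The difference was 0.29 ± 0.05 for Cldn11 (adjusted p = 0.0011), 0.37 ± 0.08 for Mal (0.0093), 0.40 ± 0.08 for Ugt8 (0.012) and 0.29 ± 0.06 for Mag (0.019; SE, limma adjusted p). It was 0.39 ± 0.09 for Fa2h (adjusted p = 0.023), 0.27 ± 0.06 for Mobp (0.023) and 0.27 ± 0.06 for Cnp (0.025; SE, limma). Mog differed by 0.30 ± 0.07 and did not pass (SE; adjusted p = 0.069, limma). It passed with the label-number block (adjusted p = 0.025), with the filter on low levels (0.045) and with array weights (0.024; limma), which gave 8 calls each. Over all probe sets these fits gave 84, 46 (of 17528 left by the filter) and 49 calls. Also not passing were Mbp probe sets 10802980 (0.19, adjusted p = 0.84) and 10802972 (0.08, adjusted p = 1.0, limma).

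Without the 8 arrays against their sex label the Long Evans minus Fischer differences had a median of 0.30, and only Cldn11 passed (0.29, adjusted p = 0.023, limma). In that fit 12 of 29214 probe sets were called. Leaving out single controls gave 3 to 8 calls, the fewest without Fischer male control 1 (3) and Long Evans female control 4 (4). The Long Evans effect in this difference carries the label runs given above, where exposure and run cannot be told apart in most exposed groups. Long Evans minus Sprague Dawley was positive for 10 of 10, from 0.02 to 0.21, with 0 called (limma; 6 unadjusted; Cldn11 0.20, adjusted p = 0.27; 0.0787% of all called). Sprague Dawley minus Fischer was also positive for 10 of 10, from 0.06 to 0.21, with 0 called (limma; 6 unadjusted; 0.0103% of all called).

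The control rats of these strains differed too, and the same controls enter the lead effects. In controls, Long Evans minus Fischer passed for 6 of 10, with 25.1% of all probe sets called. Mog was higher in Long Evans controls, at 11.61 ± 0.15 against 11.39 ± 0.12 in Fischer controls (SD, n = 8 each; difference 0.22, adjusted p = 0.0090, limma). Lower in Long Evans controls were Mobp by -0.27 (11.68 ± 0.08 against 11.94 ± 0.07 in Fischer, SD; adjusted p = 7.7e-05, limma) and Ugt8 by -0.23 (adjusted p = 0.015). Mbp probe set 10802980 (-0.19, adjusted p = 0.028), Mal (-0.18, 0.045) and Cnp (-0.16, 0.025) were lower as well (limma). Cldn11, Mag, Fa2h and Mbp probe set 10802972 did not pass (-0.05, -0.13, 0.003 and 0.004). When the 8 sex-mismatched arrays were left out 3 passed (Mobp, Ugt8 and Cnp), and Mog, Mal and Mbp probe set 10802980 did not. Without Fischer male control 3 or 4 the count was also 3.

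Long Evans minus Sprague Dawley controls passed for Mal (-0.23, adjusted p = 0.012) and Mobp (-0.18, adjusted p = 0.012, limma), where 24.5% of all probe sets were called. The count was 0 without Sprague Dawley male control 1, and 1 when the sex-mismatched arrays were left out. Sprague Dawley minus Fischer controls gave 0 member calls (limma; 1 unadjusted, Mog 0.17; 10.5% of all called), and 1 without Sprague Dawley male control 3.

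Most pairs of the 9 genes moved together from rat to rat. Correlations were taken on residuals, after the group mean and label-number set had been removed, within strain, with Mbp as the mean of its probe sets. Over the 36 gene pairs the median Pearson r was 0.698 in Long Evans (n = 40), 0.689 in Sprague Dawley (n = 39) and 0.718 in Fischer (n = 40). Pairs with an adjusted permutation p under 0.05 numbered 34, 36 and 34 of 36 in that order of strains (100000 permutations, adjusted over all pairs and strains). The residuals were permuted as if independent, but removing group means and label-number set leaves fewer free values than rats. These p-values therefore tend to be too small, which matters most for those near the threshold. Without the arrays against their sex label the median r was 0.711 in Long Evans and 0.724 in Sprague Dawley. With the residuals of each gene scaled to equal variance, a first principal component took up 71.0% of the variance for Long Evans. It took up 72.4% for Sprague Dawley and 71.5% for Fischer. All points of a strain share the array type and the tissue dissection, and RMA summaries share normalization.

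Cnp and Fa2h made the closest pair in Long Evans and Fischer, at r = 0.885 (Spearman's rho 0.847) and r = 0.884 (rho 0.854). They gave an adjusted permutation p of 1.6e-05 in each, the smallest these permutations can give here, and r = 0.873 and 0.844 without the 2 rats farthest from the median. In Sprague Dawley the closest pair was Cnp and Ugt8 (r = 0.862, rho 0.783). Mbp stood apart, with r = -0.010 to Mog in Long Evans (adjusted permutation p = 0.95) and r = 0.266 to Cldn11 in Fischer (adjusted permutation p = 0.098). The Mbp probe sets disagreed: probe set 10802980 had a median r with the 8 other genes of 0.726, 0.688 and 0.647 in Long Evans, Sprague Dawley and Fischer, and probe set 10802972 of 0.021, 0.239 and 0.144. Between the 2 probe sets r was 0.285, 0.400 and 0.388.

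**Figure D4:**
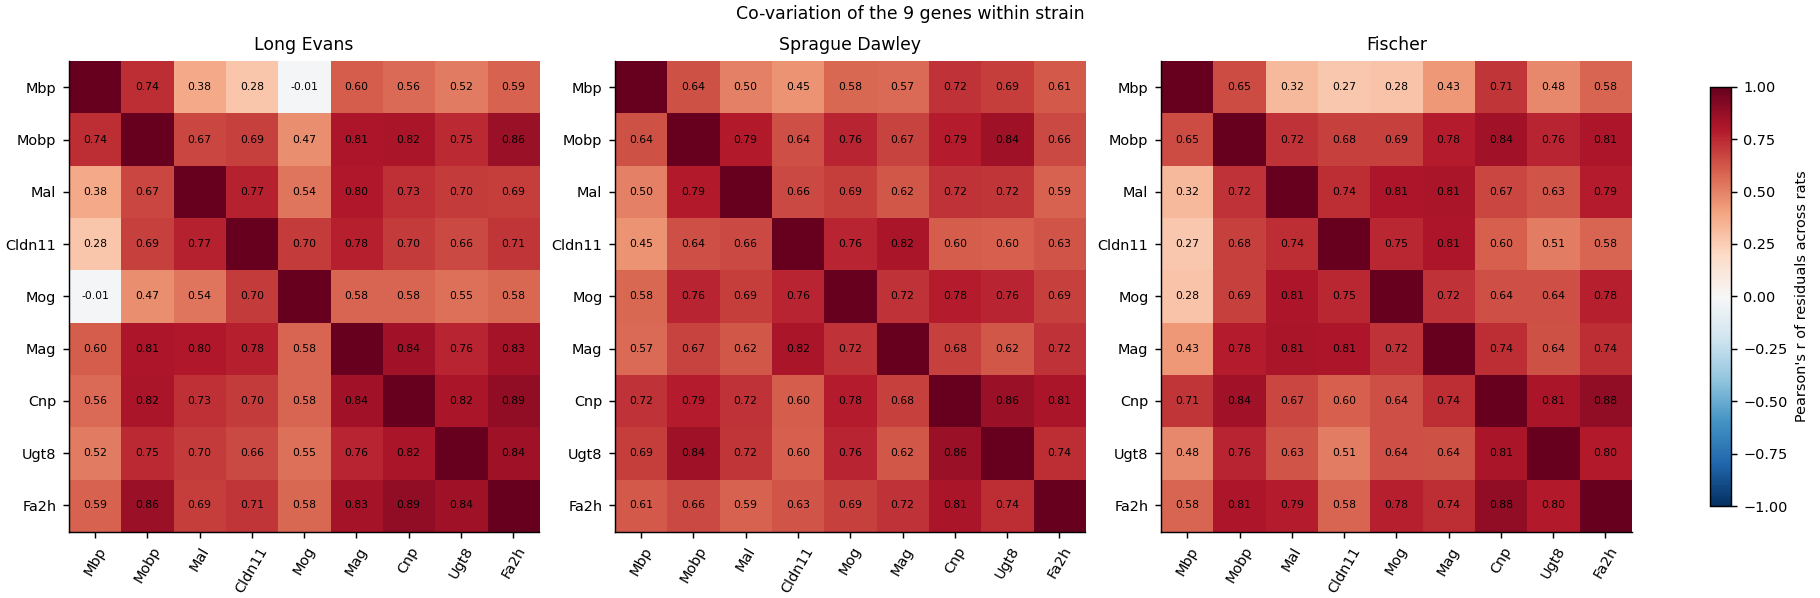
Pearson's r between the 9 genes across rats within Long Evans (n = 40), Sprague Dawley (n = 39) and Fischer (n = 40), on residuals from group means and label-number set; colour runs from -1 (blue) to 1 (red), and the diagonal is 1. Most cells are red in every strain, and the palest belong to Mbp, down to -0.010 with Mog in Long Evans.

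The genes most like the mean of the members across the rats of all strains were Ermn (r = 0.845), Rffl (0.824), S1pr5 (0.817), Klk6 (0.813) and Lpar1 (0.813). Bcas1 (0.799), Cntn2 (0.798), Tmem88b (0.797), Slc6a9 (0.797) and Plekhh1 (0.797) followed. Neighbours in this order differ by little. Over 15300 single-symbol probe sets that are no member, the median r was -0.001 and the 99th percentile 0.534.

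Other genes of mature oligodendrocytes mostly had the same sign as the members, with medians nearer 0 in Long Evans and Fischer but not in Sprague Dawley. Of 29 probe sets in a list of other myelin and mature oligodendrocyte genes, 27 had a positive mean lead effect in Long Evans, with a median of 0.10 log2, and 1 passed. It was Gsn, an actin-severing protein (0.24 ± 0.05, SE; adjusted p = 0.017, limma), which did not pass without the 3 controls against their sex label (0.22, adjusted p = 0.21, limma). Adamts4, a metalloprotease of mature oligodendrocytes (0.22, adjusted p = 0.078), Klk6, a serine protease (0.22, adjusted p = 0.088), and Nipal4 (0.18, adjusted p = 0.12) did not pass. In Sprague Dawley 24 of 29 were positive (median 0.06) and in Fischer 3 of 29 (median -0.05), with 0 passing in either (limma; 4 and 1 unadjusted).

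In the list of oligodendrocyte precursor and lineage genes 11 of 11 probe sets were positive in Long Evans (median 0.13), and Gpr17, a receptor of committed precursors, passed (0.21 ± 0.04, SE; adjusted p = 0.0071, limma). Without the 3 controls against their sex label Gpr17 did not pass (0.22, adjusted p = 0.074, limma). Olig1, a transcription factor of the lineage (0.18, adjusted p = 0.11), Enpp6 (0.25, 0.19), Neu4 (0.13, 0.21), Pdgfra, the growth factor receptor of precursors (0.11, 0.29), and Sox10, a transcription factor of myelin genes (0.12, 0.59), did not pass (limma). All 11 were negative in Fischer (median -0.07) and 10 of 11 positive in Sprague Dawley (median 0.06), with 0 passing (limma; 1 and 2 unadjusted).

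Lipid and axonal partners had smaller median values in Long Evans. In myelin sphingolipid synthesis 5 of 7 were positive (median 0.05) and 0 passed (limma; 2 unadjusted), with Gltp, a glycolipid transfer protein, at 0.16 (adjusted p = 0.089), Cers2, the ceramide synthase of very long chains, at 0.15 (0.32), Degs1 at -0.07 (0.78) and Kdsr at 0.05 (0.84). In cholesterol synthesis 7 of 16 were positive (median -0.003) and 0 passed (limma; 1 unadjusted), with Fdps at -0.12 (adjusted p = 0.51), Lss at 0.08 (0.70), Idi1 at -0.07 (0.90) and Cyp51 at 0.04 (0.90). In Fischer 16 of 16 cholesterol probe sets were negative (median -0.04, 0 called; 0 unadjusted, limma), and in Sprague Dawley 15 of 16 were positive (median 0.04, 0 called; 1 unadjusted). At nodes and paranodes 6 of 9 were positive in Long Evans (median 0.02) and 0 passed (limma; 1 unadjusted), with Nfasc at 0.07 (adjusted p = 0.65), Sptbn4 at 0.07 (0.69), Cntn2 at 0.07 (0.74) and Cntn1 at -0.04 (0.86).

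**Figure D5:**
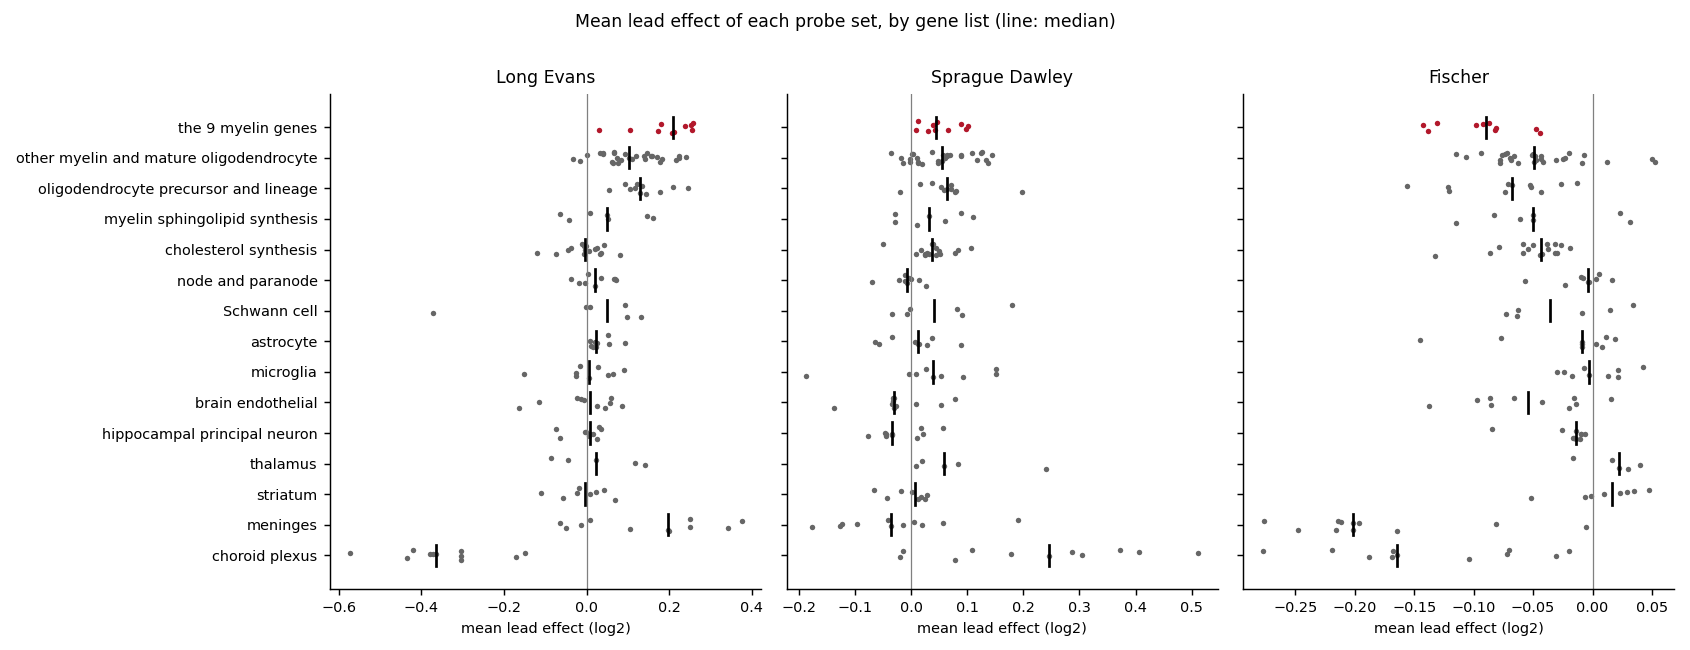
Mean lead effect (log2) of each probe set in the myelin members (red) and in 14 marker or pathway lists (grey) for Long Evans, Sprague Dawley and Fischer; black lines are medians, and the horizontal scale differs between panels. The members' median is 0.21 in Long Evans, 0.04 in Sprague Dawley and -0.09 in Fischer, and the choroid plexus list lies at -0.37, 0.25 and -0.16.

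Markers of other cells and of neighbouring tissue were set beside these results. In Long Evans the choroid plexus list had 11 of 11 probe sets negative (median -0.37), and its mean level ran from 6.86 to 10.29 in exposed and from 6.69 to 10.08 in control rats. The meninges list had 8 of 11 positive (median 0.20), from 7.97 to 9.22 in exposed and 7.90 to 9.17 in controls. None of either list passed (limma; 0 and 1 unadjusted). With the choroid plexus mean as a covariate the members' median effect was 0.22, and Mog, Mag, Cnp, Cldn11, Ugt8 and Fa2h passed. In that fit 64 of 29214 probe sets were called. In Fischer both lists had 11 of 11 negative (medians -0.16 and -0.20), and in Sprague Dawley the choroid plexus list had 9 of 11 positive (median 0.25).

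The remaining lists had smaller medians in Long Evans, and 0 of their probe sets passed (limma). They were 0.02 for astrocytes (9 of 9 positive, 2 unadjusted), 0.01 for microglia (5 of 9, 2 unadjusted), 0.01 for brain endothelium (5 of 10, 1 unadjusted) and 0.01 for hippocampal principal neurons (6 of 10, 1 unadjusted). They were 0.05 for Schwann cells, which myelinate peripheral nerve (4 of 6, 2 unadjusted; the mean was -0.01), 0.02 for thalamus (3 of 5, 1 unadjusted) and -0.004 for striatum (4 of 8, 1 unadjusted).

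Across rats the mean of the members followed the other myelin list at r = 0.957 in Long Evans, 0.935 in Sprague Dawley and 0.935 in Fischer (rho 0.944, 0.891 and 0.943; adjusted permutation p = 5.2e-05 each, over 42 relations). The precursor and lineage list gave r = 0.781, 0.833 and 0.905 (rho 0.797, 0.791 and 0.909), with the same adjusted permutation p. Myelin sphingolipid synthesis gave 0.733, 0.685 and 0.590 (adjusted permutation p = 5.2e-05, 5.2e-05 and 0.00023). Nodes and paranodes gave 0.287, 0.598 and 0.605 (adjusted permutation p = 0.14, 0.00021 and 0.00021). Cholesterol synthesis gave 0.146, 0.616 and 0.464 (adjusted permutation p = 0.47, 0.00024 and 0.007), and astrocytes 0.194, 0.345 and 0.497 (0.33, 0.065 and 0.0027). Schwann cell markers gave -0.018, 0.009 and 0.260, and meninges -0.235, 0.195 and -0.154, none with an adjusted permutation p under 0.05. Choroid plexus gave 0.292, 0.277 and 0.100 (adjusted permutation p = 0.14, 0.16 and 0.60). Microglia, brain endothelium and striatum also had no adjusted permutation p under 0.05 in any strain. The 5 thalamus probe sets, which mark more heavily myelinated tissue next to the hippocampus, gave 0.580, 0.568 and 0.396 (rho 0.652, 0.463 and 0.324; adjusted permutation p = 0.00036, 0.00045 and 0.028). Without the 2 farthest rats these were 0.505, 0.417 and 0.310. Principal neuron markers gave r = -0.387 in Long Evans (rho -0.405) and 0.387 in Fischer (rho 0.289), with an adjusted permutation p of 0.030 in each, and r = -0.070 in Sprague Dawley. For rho in Fischer the adjusted permutation p was 0.13. The limit of permuted residuals given above holds here too, so passes near the threshold, as for principal neurons and for thalamus in Fischer, are uncertain. The part of dissection in the members' results was not tested.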

How the data were processed

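The authors deposited 1 log2 intensity per probe set and array, and RMA and Partek are named in the submitters' processing notes. Versions, the order of steps and any batch correction are not given in the sources used here. Probe sets took their symbols from the platform's probe-gene table, matched to GRCr8 by gene identifier. With limma 3.58.1 (R 4.3.3), lead, dose, period and sex were tested in 1 fit of group means per strain, and strain contrasts in 1 fit of all arrays. Tests were two-sided, with Benjamini-Hochberg adjustment over 29214 probe sets within a contrast, and called at an adjusted p under 0.05. Means over the perinatal or postnatal groups were added beside the planned contrasts. Correlations used 100000 permutations. Fits were also run on simulated data with independent noise for each probe set. The simulation held no label-number shift and no shared variation between genes, so it does not bear on these. The number of arrays limits the precision.

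Members, lists and tests were chosen with earlier results of these data known. Named beside the members were, per list, up to 4 genes with the smallest p in Long Evans, 5 fixed genes, and the 10 most alike probe sets. Alternatives were a label-number block, 1 joint fit, quantile normalization, a filter at the 40th percentile, array weights, a choroid plexus covariate, removal of arrays against their sex label, and leaving out animals.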

Additional observations from a re-analysis of the deposited data

Results flagged for a closer look

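Single animals stood far from the other 3 of their group in 15 of 290 combinations of probe set and group, by the gap to the nearest animal over the group's range (above 0.829). Chance gives about 1 in 20. In Fischer exposed groups these were Mal in male perinatal 250 ppm rat 3 (highest, 11.99), Mobp in male postnatal 250 ppm rat 3 (highest, 11.90), Mag and Ugt8 in male postnatal 750 ppm rats 3 and 2 (highest, 11.53, and lowest, 10.49), and Mbp probe set 10802972 in female postnatal 750 ppm rat 3 (lowest, 8.77). In Fischer controls, male 2 was lowest for Mbp probe set 10802980 (12.30) and Cnp (11.88), and female 3 was lowest for Mbp probe set 10802972 (8.93). In Long Evans exposed groups, Mog was highest in male postnatal 250 ppm rat 3 (12.21) and Ugt8 lowest in male perinatal 750 ppm rat 1 (10.31). In Long Evans controls, male 3 was lowest for Mobp (11.55) and Cnp (11.79), male 1 lowest for Mal (11.69), male 2 highest for Mbp probe set 10802972 (9.34), and female 3 lowest for the same probe set (8.96).

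The mean lead effect differed between Long Evans and Fischer, by limma's test of the difference, for Ugt8 (0.40), Fa2h (0.39), Mal (0.37), Mag (0.29), Cldn11 (0.29), Mobp (0.27) and Cnp (0.27). Without the arrays against their sex label only Cldn11 passed (0.29, adjusted p = 0.023, limma; 12 of 29214 probe sets called). In most Long Evans exposed groups exposure and label run cannot be told apart, and this enters the difference.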

How the results depend on the processing

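The number of arrays limits the precision, and most member calls lie near the threshold. In Long Evans the 5 calls of the mean lead effect became 8 in 1 fit of all arrays, 3 after quantile normalization and 0 with the sex-mismatched arrays left out, and 1 to 6 when 1 animal was left out, below 4 for all 8 controls and 22 of 32 exposed animals. With the label-number block, whose numbers are shared by no pair of groups and pair no animals, the 5 calls became 4, Fa2h not passing (adjusted p = 0.051). Calls over all 29214 probe sets moved as well, from 62 in the main fit to 118 in 1 fit of all arrays. They were 45 after quantile normalization, 57 with the block and 15 with the sex-mismatched arrays left out. The single group call (1) became 0 with the replicate block, quantile normalization, array weights and the sex-mismatched arrays left out, and 0 to 1 when 1 animal was left out. Long Evans minus Fischer in the lead effect (7 calls) gave 1 without the arrays against their sex label, 3 to 8 in leave-one-out, and 8 with the label-number block, the filter or array weights. Over all probe sets it gave 38 calls in the main fit, 12 without those arrays, 84 with the block and 49 with array weights. With the filter it gave 46 of 17528. Long Evans minus Sprague Dawley (0) gave 1 with array weights and 0 to 1 in leave-one-out (1 without Sprague Dawley male control 3). Its calls over all probe sets were 23 in the main fit and 59 with array weights. In controls, Long Evans minus Fischer (6) gave 3 without the arrays against their sex label and 3 to 7 in leave-one-out, Long Evans minus Sprague Dawley (2) gave 1 and 0 to 3, and Sprague Dawley minus Fischer (0) gave 0 to 1. Median r in raw values of the upper and lower label numbers was 0.766 and 0.841 in Long Evans, 0.804 and 0.711 in Sprague Dawley, and 0.704 and 0.676 in Fischer. Alternatives for the perinatal means, for Gsn and Gpr17, and for the counts of groups wholly above control were chosen after seeing the data. The calls of Cldn11 and Mag in the perinatal mean and of Gsn and Gpr17 were lost without the arrays against their sex label, and in none of the other alternatives run on all animals. The cause was not tested, except that fewer arrays were fitted where some were left out.

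Sign changes concerned values near 0 that did not pass. Without the arrays against their sex label they were Mbp probe set 10802972 in Long Evans (-0.0040) and Sprague Dawley (-0.0094), Cldn11 in Sprague Dawley (-0.0061) and Mog in Long Evans minus Sprague Dawley controls (-0.0012). With array weights they were Mbp probe set 10802972 (-0.0104) and Cldn11 (-0.0005) in Sprague Dawley, and with the choroid plexus covariate Fa2h in Long Evans minus Fischer controls (-0.0072). When 1 animal was left out, Sprague Dawley mean effects ran from -0.0141 to 0.0302 for Mbp probe set 10802972, from -0.0009 to 0.0534 for Mbp probe set 10802980, from -0.0001 to 0.0895 for Mal, from -0.0066 to 0.0617 for Mobp, from -0.0449 to 0.0468 for Cldn11 and from -0.0012 to 0.0983 for Fa2h. Long Evans minus Sprague Dawley in the lead effect of Mbp probe set 10802972 ran from -0.0019 to 0.0474. In controls, Long Evans minus Fischer ran from -0.0278 to 0.0398 for Mbp probe set 10802972 and from -0.0324 to 0.0486 for Fa2h, and Long Evans minus Sprague Dawley from -0.0022 to 0.0999 for Mog. Sprague Dawley minus Fischer controls ran from -0.0891 to 0.0001 for Mag, from -0.0571 to 0.0174 for Cnp and from -0.0117 to 0.0801 for Cldn11.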
